A study of Mus musculus with 9 samples.

Results

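The cell cycle genes described here are 34 genes that drive or restrain cell division, from cyclins and cyclin-dependent kinases to the replicative helicase, the mitotic kinases and the Rb and E2F proteins. Their members in the data are peaks of accessible chromatin: those that overlap the body of such a gene, or that overlap no protein-coding gene and have it as the nearest gene body within 100 kb. The rule takes 192 of the 61540 peaks, and 34 of 34 genes have at least 1 peak. Of these peaks, 68 lie within 1 kb of a start of their gene and are called promoter peaks, and the other 124 are called other peaks. For 6 genes with no known start, named below, either end of the gene body stood in for it, so their promoter peaks may lie at the far end. Assignment by position does not show which gene a peak acts on.

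The assay was ATAC-seq: a transposase cuts open DNA and leaves sequencing adapters at the cuts. The cells were age-associated B cells of the spleen, taken by flow cytometric sorting. These B cells accumulate with age and in lupus. The hosts were MRL/lpr (MRL.Faslpr) mice of 20 weeks, a strain that lacks normal Fas and develops a lupus-like disease, so Fas deficiency is shared by all groups. They were 3-way bone marrow chimeras, and the sorted cells carried one of 3 genotypes of Tlr9, the endosomal receptor for CpG-rich DNA. KO cells were TLR9-/-, P915H cells were TLR9P915H/P915H, a receptor that the submitters call non-signaling, and WT cells were TLR9WT, with 3 samples in each group and 9 in all. Which samples came from a common host, whether replicates are separate animals, and the surface markers of the sort are not given in the labels. A p-value here therefore measures only how far these samples spread, which may be technical. Values are log2 accessibility on a scale close to CPM (read counts relative to the total in peaks), and the depth of each sample is unknown.

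Cyclins bind cyclin-dependent kinases (CDKs) and switch them on in turn. D-type cyclins with Cdk4 or Cdk6 start the phosphorylation of Rb, which frees E2F factors to turn on cyclin E and the genes of DNA replication, and Cdk1 with B-type cyclins then drives mitosis. The inhibitors Cdkn1a (p21), Cdkn1b (p27) and Cdkn2c (p18) hold these kinases back. Promoters of replication genes often hold E2F sites, whereas those of mitotic genes often pair CCAAT boxes, bound by NF-Y, with a CHR element, bound by the MuvB complex. Accessibility of a promoter is not itself a measure of division.

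The promoters of several members carry these motifs close to the start, and 7 are shown: 6 as examples of how the motifs are placed in members of different roles, and Ccnd3 because the peak at this start differed between KO and P915H. Each line gives the 150 bases before the RefSeq start (build GRCm38.p6, the assembly of mm10), 5′ to 3′ on the strand of the gene. Capitals mark an E2F motif (TTTCCCGC, TTTCGCGC, TTTGCCGC or TTTGGCGC), a CHR motif (TTTGAA or TTCGAA) or a CCAAT motif, each searched on both strands.
Cdk1 (mitotic kinase, chr10:69352913-69353062, minus strand): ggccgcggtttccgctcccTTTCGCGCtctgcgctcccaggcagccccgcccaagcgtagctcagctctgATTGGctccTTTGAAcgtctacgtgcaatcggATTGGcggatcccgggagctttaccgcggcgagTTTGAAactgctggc
Ccnb2 (cyclin B2, chr9:70421555-70421704, minus strand): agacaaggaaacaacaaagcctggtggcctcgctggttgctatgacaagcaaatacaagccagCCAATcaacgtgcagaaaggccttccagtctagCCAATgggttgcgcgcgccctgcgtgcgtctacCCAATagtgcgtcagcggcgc
Cdc20 (activator of the anaphase-promoting complex, chr4:118437344-118437493, minus strand): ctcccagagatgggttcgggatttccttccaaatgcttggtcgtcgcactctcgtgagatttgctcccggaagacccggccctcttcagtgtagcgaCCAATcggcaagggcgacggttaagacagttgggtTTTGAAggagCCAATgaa
Top2a (DNA topoisomerase, chr11:99024190-99024339, minus strand): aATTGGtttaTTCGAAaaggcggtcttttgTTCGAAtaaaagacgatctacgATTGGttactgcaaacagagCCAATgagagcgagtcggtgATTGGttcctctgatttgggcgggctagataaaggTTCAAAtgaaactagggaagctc
Mcm6 (helicase subunit, chr1:128359706-128359855, minus strand): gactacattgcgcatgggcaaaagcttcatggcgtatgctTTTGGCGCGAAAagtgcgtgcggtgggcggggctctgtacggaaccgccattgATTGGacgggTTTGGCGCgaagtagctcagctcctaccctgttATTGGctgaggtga
E2f3 (E2F factor, chr13:29986064-29986213, minus strand): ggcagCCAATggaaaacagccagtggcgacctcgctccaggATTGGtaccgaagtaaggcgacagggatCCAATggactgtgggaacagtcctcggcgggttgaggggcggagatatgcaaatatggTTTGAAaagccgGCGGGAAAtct
Ccnd3 (cyclin D3, first start, chr17:47504901-47505050, plus strand): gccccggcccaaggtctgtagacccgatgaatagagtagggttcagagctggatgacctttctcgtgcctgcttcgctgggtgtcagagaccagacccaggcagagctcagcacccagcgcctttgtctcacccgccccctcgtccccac

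Counting backwards from the base before the start as -1, Ccnb2 has 3 CCAAT motifs that begin at -87, -54 and -21. Its CHR motifs lie outside the printed bases and begin at -167 and, after the start, at 5. Cdk1 combines all 3 motifs, with E2F at -131, CHR at -71 and -15, and CCAAT on the opposite strand at -80 and -48. In Cdc20 a CHR at -18 lies between CCAAT motifs at -53 and -8. Mcm6 holds 3 E2F motifs, of which those at -110 and -106 overlap on opposite strands and the other begins at -47. E2f3, itself an E2F factor, has E2F at -11 and CHR at -23. The 150 bases before the first start of Ccnd3 hold none of these letters.

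The reference table of promoters, from RefSeq, gives 34 windows of 300 bases (250 before to 50 after a start) for 28 of the 34 genes, and a peak overlaps 32 of them. An E2F motif was found in 8 of the 34 windows (23.5%), against 2.26% of all 32851 windows and 4.48% of the 11737 that overlap a peak. For CHR the numbers were 12 windows (35.3%), against 19.2% of all and 13.4% of those with a peak. CCAAT was found in 24 windows (70.6%), against 37.4% and 39.3%. Median GC content was 58.3% in the members' windows, 52.7% in all windows and 61.7% in all windows with a peak. A match of letters is a description and not a measured binding site. For Ccna2, Ccnd2, Ccne2, Mcm4, Aurkb and Rb1 either end of the gene body stood in for the start.

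Most members had an open promoter in every sample. To compare genes, the value of a peak was put on a scale per kb of peak length, on which the median was 5.12 over all peaks, 5.72 over all 17800 promoter peaks and 6.21 over the members' 68 promoter peaks. Taking the strongest promoter peak of each gene, E2f3 was the highest at 9.02 per kb, above 99.3% of all peaks. Next came the mitotic and S-phase cyclin gene Ccna2 at 8.87, the sliding clamp gene Pcna at 8.69 and E2f2 at 8.55. All 6 helicase genes lay in a narrow range, from 7.62 for Mcm2 to 8.47 for Mcm4.

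At the lower end were Tyms (thymidylate synthase) at 2.92 per kb and Rb1 at 3.15, which exceed only 2.65% and 4.53% of all peaks. No start was known for Rb1, so its peak lies near either end of the gene body and may not be at its promoter. Cdk2 at 4.02, Cdkn2c at 4.22 and Ccne1 at 5.0 were also below the median peak on the scale per kb. Before division by peak length they were at 3.41, 3.76 and 4.06, above the median of 3.03 over all peaks, so their low rank reflects wide peaks. In the middle of the order, neighbours overlapped over the samples. Cdk6 and Cdk4 were both at 7.52, and Cdkn1b, Ccnb1, Ccne2 and Cdkn1a lay between 6.47 and 6.56. Some of these peaks are shared with a neighbour: the Pcna peak also overlaps Cds2, the Mcm4 peak Prkdc, the strongest Mcm7 peak Ap4m1, the Aurka peak Cstf1 and the Cdk2 peak Pmel, so the signal cannot be given to 1 gene.

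**Figure D1:**
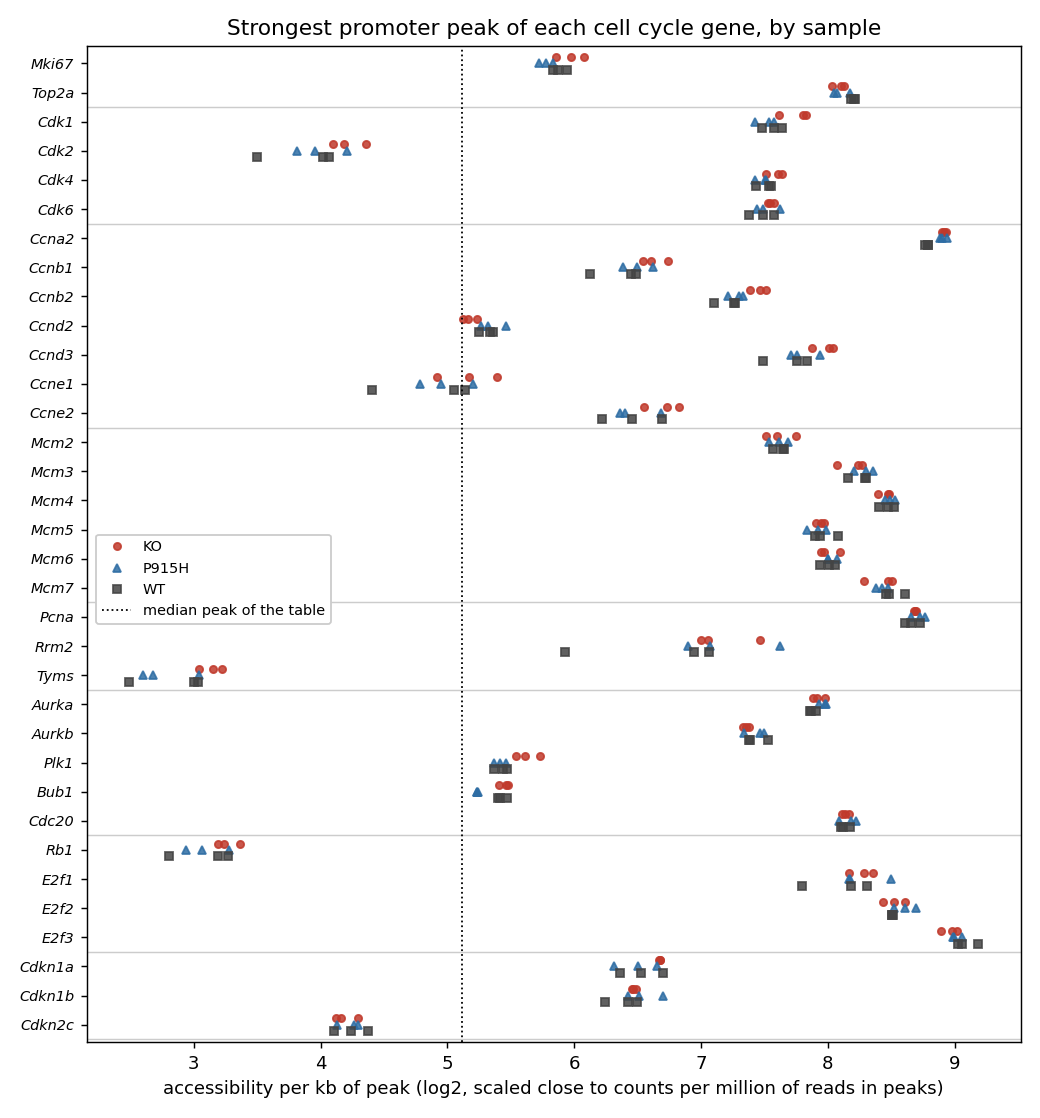
Accessibility of the strongest promoter peak of each of the 34 genes in each of the 9 samples, as log2 per kb of peak length, by role from the proliferation markers (top) to the CDK inhibitors (bottom); the dotted line is the median peak of the table. Symbols of the 3 genotypes lie close together for most genes, while the levels of genes run from 2.92 (Tyms) to 9.02 (E2f3).

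Within a gene, the genotypes were close at these promoters. Ccna2 had values of 6.67, 6.68 and 6.70 in KO, 6.71, 6.67 and 6.65 in P915H and 6.54, 6.56 and 6.56 in WT, and the WT samples were the 3 lowest (adjusted p = 0.350 for KO against WT and 0.721 for P915H against WT, limma). E2f3 had 6.79, 6.75 and 6.66 in KO, 6.76, 6.82 and 6.76 in P915H and 6.82, 6.80 and 6.95 in WT, so that its groups overlapped except that the 3 WT values lay above those of KO. Pcna had 6.43, 6.44 and 6.43 in KO, 6.47, 6.52 and 6.40 in P915H and 6.41, 6.36 and 6.48 in WT. The groups of Pcna overlapped, and at Ccna2 only KO and P915H did.

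Cdk1, whose kinase drives entry into mitosis, had promoter values of 5.34, 5.55 and 5.53 in KO, 5.30, 5.14 and 5.26 in P915H and 5.36, 5.30 and 5.20 in WT. KO and P915H did not overlap, and WT overlapped both. The difference of KO from P915H was 0.24 (SE 0.11, adjusted p = 0.175, limma). Cdc20 had 5.93, 5.87 and 5.89 in KO, 5.85, 5.98 and 5.94 in P915H and 5.93, 5.87 and 5.88 in WT, with overlapping groups. Top2a had 5.79, 5.88 and 5.86 in KO, 5.93, 5.80 and 5.83 in P915H and 5.93, 5.96 and 5.97 in WT, and the 3 WT values were the highest (adjusted p = 0.512 for KO against WT). For Cdkn1b the values were 5.25, 5.27 and 5.25 in KO, 5.30, 5.21 and 5.49 in P915H and 5.22, 5.28 and 5.03 in WT, with overlapping groups.

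The difference in the strongest promoter peak could be bounded for most genes. For KO against P915H the 95% interval lay within 0.5 of 0 on the log2 scale (a 1.41-fold difference) for 28 of 34 genes, and within 1 (2-fold) for 34 of 34. The 6 genes with wider intervals were Ccne1, Ccne2, Cdk2, Rb1, Rrm2 and Tyms. For KO against WT 26 genes, and for P915H against WT 29, lay within 0.5. Only Rrm2 went beyond 1 in either of those comparisons. Over all 68 promoter peaks the bounds were looser. There 37 lay within 0.5 for KO against P915H, 38 for KO against WT and 42 for P915H against WT, and 65 within 1 in each. The 2 promoter peaks past the threshold, at Ccnd3 and Mcm7, are not the strongest of their genes.

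Rrm2 encodes a subunit of ribonucleotide reductase and had the widest interval. Its strongest promoter peak had 4.85, 4.79 and 5.25 in KO, 4.69, 4.86 and 5.41 in P915H and 4.85, 4.73 and 3.71 in WT. WT replicate 3 was lower than every other sample, while KO and P915H replicate 3 were the highest of their groups. In the deposited values the mean over genotypes is the same for each replicate number at every peak, so a low value in 1 sample goes with high values in samples of the same number. WT replicate 3 was the lowest of the 9 samples at 24 of the members' 68 promoter peaks (35.3%), and at 35.2% of all promoter peaks. At other peaks these shares were 11.3% and 9.59%. On the second principal component of all peaks it lay at 70.5, with the other 8 samples between -45.0 and 4.36.

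The members' median levels were also taken by sample. Over the 68 promoter peaks the sample medians were 4.30, 4.38 and 4.41 in KO, 4.34, 4.36 and 4.37 in P915H, and 4.40, 4.31 and 4.09 in WT. Over the 124 other peaks they ran from 2.95 to 3.04 in KO, from 2.90 to 3.00 in P915H and from 2.92 to 3.02 in WT. The 3 groups overlapped in both classes, and the lowest promoter median belonged to WT replicate 3.

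The comparison of the receptor's absence with its P915H form (KO against P915H) gave the members' changes. By limma over all 61540 peaks, with Benjamini-Hochberg adjustment and a threshold of 0.05, 18 of the 192 member peaks (9.38%) passed, against 15.5% of all peaks. Of these, 6 were higher in KO and 12 lower, against 6.55% and 8.97% of all peaks. The members' share was thus below that of the table. Promoter and other peaks have different background shares and are given apart. The classes are not drawn alike: a member was classed by the starts of its own gene, and the peaks of the whole table by any start in the reference table. That table lacks the starts of some genes, so some of their promoters count among all other peaks. Of the 68 promoter peaks 2 passed (2.94%), both higher in KO, against 5.6% of all promoter peaks (2.97% higher, 2.63% lower). Of the 124 other peaks 16 passed (12.9%), 4 higher and 12 lower, against 19.5% of all other peaks (8.0% higher, 11.5% lower).

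**Figure D2:**
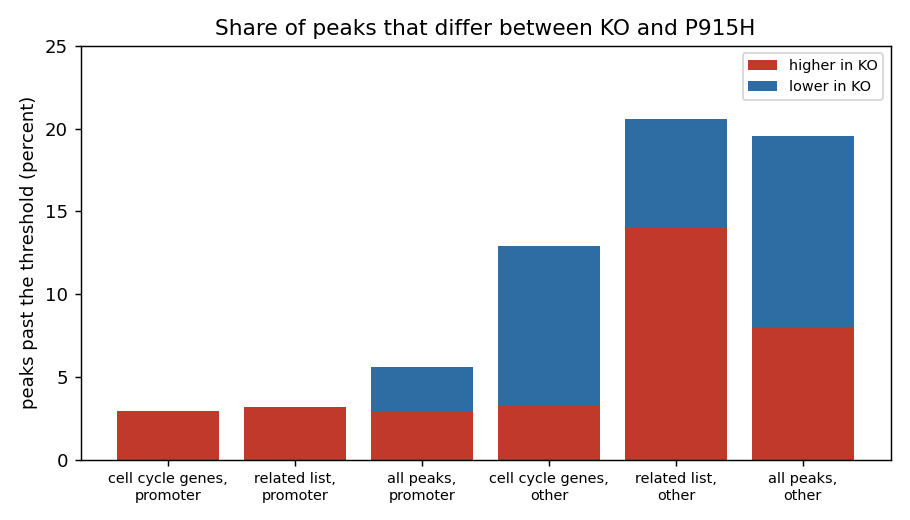
Percent of peaks past the threshold in KO against P915H (adjusted p under 0.05, limma), higher in KO in red and lower in blue, for the 34 cell cycle genes, a related list of 49 cell cycle genes and all peaks, promoter and other peaks apart. The members reach 2.94% at promoters and 12.9% elsewhere, with 5.6% and 19.5% over all peaks. Members were classed by the starts of their own gene, and the other 2 sets by any start in the reference table.

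The median log2 difference between KO and P915H was -0.0014 over the members' other peaks, with 62 peaks above 0 and 62 below, and 34 of 68 promoter peaks were above 0. The median size of the difference, sign ignored, was 0.15 at the members' promoter peaks and 0.25 at their other peaks. Over all peaks these were 0.14 and 0.29. The values of KO and P915H did not overlap at 77 of 192 member peaks (40.1%, against 42.2% of all peaks). These were 20 of 68 promoter peaks (29.4%, against 29.0% of all promoter peaks) and 57 of 124 other peaks (46.0%, against 47.5%).

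By role, the calls were few. None of the 7 peaks of the proliferation markers, 12 of the DNA synthesis genes or 11 of the mitotic kinases and spindle checkpoint passed. At an unadjusted p under 0.05 in limma these had 1, 2 and 0 peaks. Over all peaks that share was 29.0% (14.0% of promoter and 35.1% of other peaks). Promoter peaks, which pass less often, were 4 of the 7, 6 of the 12 and 8 of the 11. The cyclins had 2 higher and 4 lower of 52, Rb and the E2F genes 6 lower of 35, the helicase 2 higher and 1 lower of 13, the CDKs 1 higher of 37 and the inhibitors 1 higher and 1 lower of 25. Over all peaks 15.5% passed (5.6% of promoter and 19.5% of other peaks). These are counts in small groups, and whether the roles differ was not tested.

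**Figure D3:**
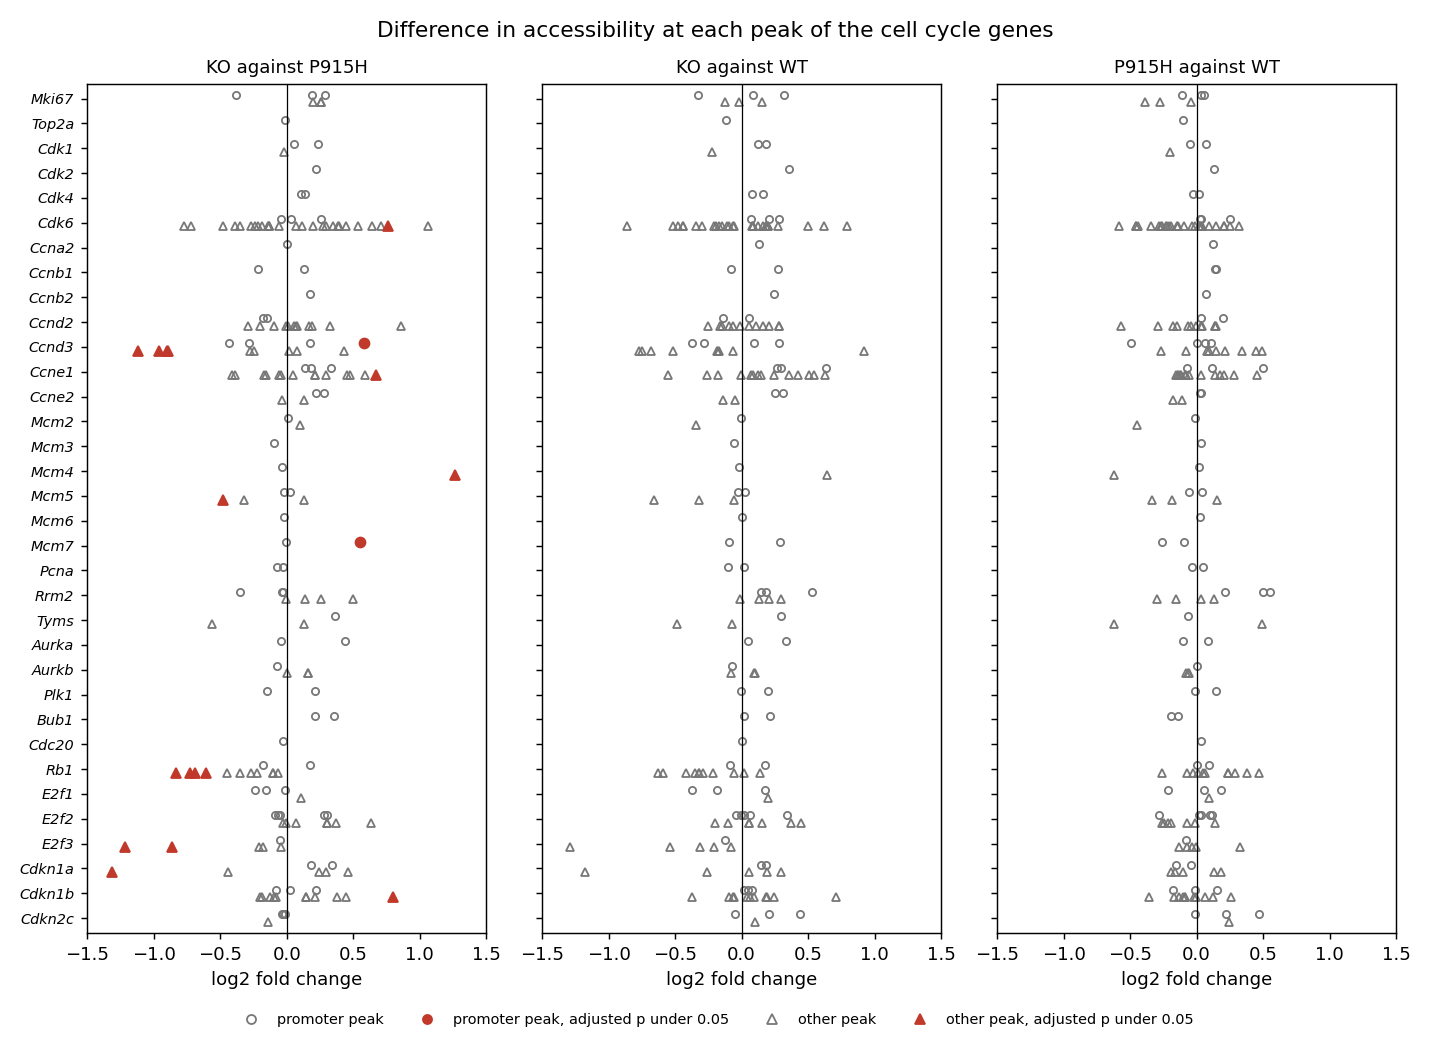
Log2 fold change at each of the 192 member peaks in the 3 comparisons (circles, promoter peaks; triangles, other peaks), by gene; filled red symbols passed an adjusted p of 0.05 in limma. Of all 3 panels only KO against P915H holds filled symbols, 6 to the right and 12 to the left, with 5 at Ccnd3 and 4 at Rb1.

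Ccnd3 encodes cyclin D3, the D-type cyclin on which B cell precursors and germinal centre B cells depend. Of its 13 peaks 5 passed, in both directions (38.5%, against 15.5% of all peaks). Over all promoter peaks 5.6% passed, and over all other peaks 19.5%. Whether single genes differ from these shares was not tested. The promoter peak at its first RefSeq start (chromosome 17, 47504958-47505165) was more accessible in KO, with 4.92, 4.91 and 4.96 in KO, 4.29, 4.43 and 4.32 in P915H and 4.91, 4.78 and 4.83 in WT. KO and P915H did not overlap, and WT lay close to KO. The difference between KO and P915H was 0.58 (SE 0.11, adjusted p = 0.00708), and the peak passed in 9 of 9 fits that each left out 1 sample. P915H against WT at this peak gave -0.49 with an adjusted p of 0.138, the smallest among the members in that comparison. The peak spans the start before which the sequence printed above ends. At the second start of Ccnd3, the strongest of its promoter peaks had 5.70, 5.83 and 5.86 in KO, 5.58, 5.53 and 5.76 in P915H and 5.66, 5.58 and 5.31 in WT, with a difference of 0.17 between KO and P915H (adjusted p = 0.390).

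The other 4 peaks of Ccnd3 that passed lay inside the gene and were lower in KO. One lies 16.6 kb from the nearest start (47521611-47521832) and had 2.92, 2.83 and 2.21 in KO, 3.71, 3.74 and 3.86 in P915H and 3.23, 3.28 and 3.78 in WT. KO lay below both other groups, and WT replicate 3 was within the range of P915H. KO minus P915H came to -1.12 (SE 0.22, adjusted p = 0.00980), and the peak passed in 8 of 9 fits that each left out 1 sample.

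A peak 18.4 kb from the start (47523457-47523716) had 0.91, 0.88 and 0.63 in KO, 1.53, 1.77 and 1.81 in P915H and 1.63, 1.41 and 1.63 in WT, and one at 37.0 kb (47542046-47542274) had 1.06, 0.85 and 1.42 in KO, 1.99, 2.14 and 1.89 in P915H and 1.85, 1.92 and 1.60 in WT. Both are weak peaks in which KO lay below P915H and WT, by -0.89 and -0.90 against P915H (SE 0.26 and 0.25, adjusted p = 0.0441 and 0.0384). With each of the 9 samples left out in turn they passed in 0 and 2 fits. The last, 4.8 kb from the second start (47598286-47598508), had 3.56, 2.59 and 3.28 in KO, 3.72, 4.43 and 4.16 in P915H and 3.63, 3.89 and 3.46 in WT. There KO replicate 2 was the lowest and P915H replicate 1 the nearest to KO. In limma, KO differed from P915H by -0.96 (SE 0.27, adjusted p = 0.0364), and the peak passed in 4 of 9 fits that each left out 1 sample. Thus the first promoter was more open in KO than in P915H while these stretches of the same gene were less so.

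Among the other cyclins, Ccne1 (cyclin E1, which with Cdk2 opens S phase) had 1 of 17 peaks past the threshold (5.88%, against 15.5% of all peaks). It lies 11994 bp beyond the end of the gene body (chromosome 7, 38085626-38085990) and had 3.43, 3.40 and 3.34 in KO, 2.76, 2.46 and 2.93 in P915H and 2.76, 3.09 and 2.68 in WT. All KO values were above all others. KO exceeded P915H by 0.67 (SE 0.18, adjusted p = 0.0346), and the peak passed in 3 of 9 fits that each left out 1 sample. No peak passed at Ccna2, Ccnb1, Ccnb2, Ccnd2 or Ccne2, which have 1, 2, 1, 14 and 4 peaks.

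The CDK genes gave 1 call in 37 peaks (2.70%, against 15.5% of all peaks). Cdk6, a partner of the D-type cyclins, has 31 peaks, the most of any member, 28 of them outside the promoter. The peak that passed lies within the gene body 38.7 kb from its start (chromosome 5, 3382608-3382954) with 2.65, 2.90 and 2.45 in KO, 2.00, 1.88 and 1.83 in P915H and 2.40, 2.27 and 2.78 in WT. KO and P915H did not overlap, and WT overlapped KO. The difference between KO and P915H was 0.76 (SE 0.21, adjusted p = 0.0367), and the peak passed in 2 of 9 fits that each left out 1 sample. A larger difference, 1.06 (SE 0.39), was measured 93.9 kb from the start, but with adjusted p = 0.0980 it did not pass. Cdk1, Cdk2 and Cdk4, with 3, 1 and 2 peaks, had none past the threshold.

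Rb and the E2F genes had 6 peaks past the threshold, all outside promoters and all lower in KO, out of 24 other peaks. This was 25.0%, against 19.5% of all other peaks (11.5% lower). Rb1 encodes the Rb protein that holds E2F factors in check. Its peak at chromosome 14, 73222639-73222846, within the gene body, had 3.60, 2.95 and 3.42 in KO, 3.82, 4.38 and 3.94 in P915H and 3.62, 3.71 and 3.68 in WT. KO replicate 2 was the lowest and P915H replicate 2 the highest. KO minus P915H came to -0.73 (SE 0.20, adjusted p = 0.0376), and the peak passed in 4 of 9 fits that each left out 1 sample.

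The other 3 Rb1 peaks that passed lie next to each other. The first (73237918-73238330) had 1.76, 1.61 and 1.76 in KO, 2.30, 2.48 and 2.42 in P915H and 2.38, 2.36 and 2.27 in WT. The second (73238522-73238737) had 3.31, 3.04 and 3.00 in KO, 3.61, 3.77 and 3.80 in P915H and 3.35, 3.47 and 3.49 in WT. The third (73238907-73239455) had 1.76, 1.49 and 1.59 in KO, 2.33, 2.54 and 2.47 in P915H and 2.18, 2.24 and 2.21 in WT. In each, all KO values were below all P915H and WT values. KO minus P915H was -0.69, -0.61 and -0.83 (SE 0.19, 0.15 and 0.19), with adjusted p of 0.0329, 0.0227 and 0.0185 in limma, and they passed in 2, 5 and 5 of 9 fits without 1 sample. These 3 peaks also overlap Lpar6, a lysophosphatidic acid receptor gene that sits inside Rb1, and cannot be given to Rb1 alone.

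E2f3 had 2 of 6 peaks past the threshold (33.3%, against 15.5% of all peaks), both lower in KO. One lies in the gene body 13.8 kb from the nearest start (chromosome 13, 29970398-29970624) and had 1.64, 1.31 and 1.23 in KO, 1.93, 2.34 and 2.48 in P915H and 2.00, 1.92 and 1.86 in WT. KO again lay below the other groups. In limma, KO differed from P915H by -0.86 (SE 0.24, adjusted p = 0.0373), and the peak passed in 3 of 9 fits that each left out 1 sample. The other lies 56792 bp upstream of the gene (30042856-30043223) with 0.89, 0.46 and 0.06 in KO, 1.41, 1.92 and 1.72 in P915H and 1.61, 1.54 and 2.13 in WT. There KO lay below both other groups. Relative to P915H, KO was changed by -1.22 (SE 0.33, adjusted p = 0.0327), and the peak passed in 4 of 9 fits that each left out 1 sample. KO against WT at this peak was -1.29 with an adjusted p of 0.0834, the smallest of any member in that comparison. E2f1 (4 peaks) and E2f2 (12 peaks) had none.

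The helicase genes gave the largest rise. A peak in the body of Mcm4 (chromosome 16, 15630279-15630534) had 3.03, 3.18 and 3.36 in KO, 2.18, 1.73 and 1.87 in P915H and 2.45, 2.75 and 2.43 in WT. The 3 groups did not overlap and WT stood between, at a difference of 0.64 for KO against WT and -0.62 for P915H against WT. The difference between KO and P915H was 1.26 (SE 0.20, adjusted p = 0.00407), and the peak passed in 9 of 9 fits that each left out 1 sample. At 2.40-fold this was the greatest difference of the members in the direction of KO. The Mcm4 promoter had 6.38, 6.39 and 6.31 in KO, 6.44, 6.36 and 6.40 in P915H and 6.32, 6.39 and 6.43 in WT, with overlapping groups.

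Mcm7 has a second RefSeq start inside the gene, and the promoter peak there (chromosome 5, 138171035-138171399) had 5.25, 5.51 and 5.44 in KO, 4.92, 4.77 and 4.85 in P915H and 5.18, 5.08 and 5.07 in WT. The 3 groups did not overlap, with WT between. KO minus P915H came to 0.55 (SE 0.11, adjusted p = 0.00965), and the peak passed in 6 of 9 fits that each left out 1 sample. A start of Ap4m1, the neighbour on that side, also lies within 1 kb, so the peak may belong to either. A peak in the body of Mcm5 (chromosome 8, 75119867-75120055) went the other way, with 3.61, 3.44 and 3.55 in KO, 3.92, 4.13 and 3.98 in P915H and 3.87, 3.83 and 3.88 in WT. KO lay below both other groups. In limma, KO differed from P915H by -0.48 (SE 0.13, adjusted p = 0.0349), and the peak passed in 2 of 9 fits that each left out 1 sample. Mcm2, Mcm3 and Mcm6, with 2, 1 and 1 peaks, had none past the threshold.

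Of the CDK inhibitors, Cdkn1a (p21, a target of p53) had the greatest fall of any member. Its peak 18863 bp upstream of the gene (chromosome 17, 29071676-29072116) had 2.30, 1.09 and 1.34 in KO, 2.61, 3.05 and 3.01 in P915H and 2.32, 3.08 and 2.87 in WT. KO replicate 1 lay close to the lowest WT sample, whereas KO replicates 2 and 3 were far below all others. Relative to P915H, KO was changed by -1.31 (SE 0.33, adjusted p = 0.0248), and the peak passed in 5 of 9 fits that each left out 1 sample. KO against WT was -1.18 there (adjusted p = 0.103). Cdkn1b (p27, which arrests cells on withdrawal of growth signals) had a peak 21977 bp downstream of the gene (chromosome 6, 134947502-134947714) with 2.27, 2.25 and 2.12 in KO, 1.18, 1.44 and 1.64 in P915H and 1.69, 1.45 and 1.38 in WT. KO lay above both other groups, which overlapped. The difference between KO and P915H was 0.80 (SE 0.24, adjusted p = 0.0470), and the peak passed in 1 of 9 fits that each left out 1 sample. None of the 4 peaks of Cdkn2c passed.

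**Figure D4:**
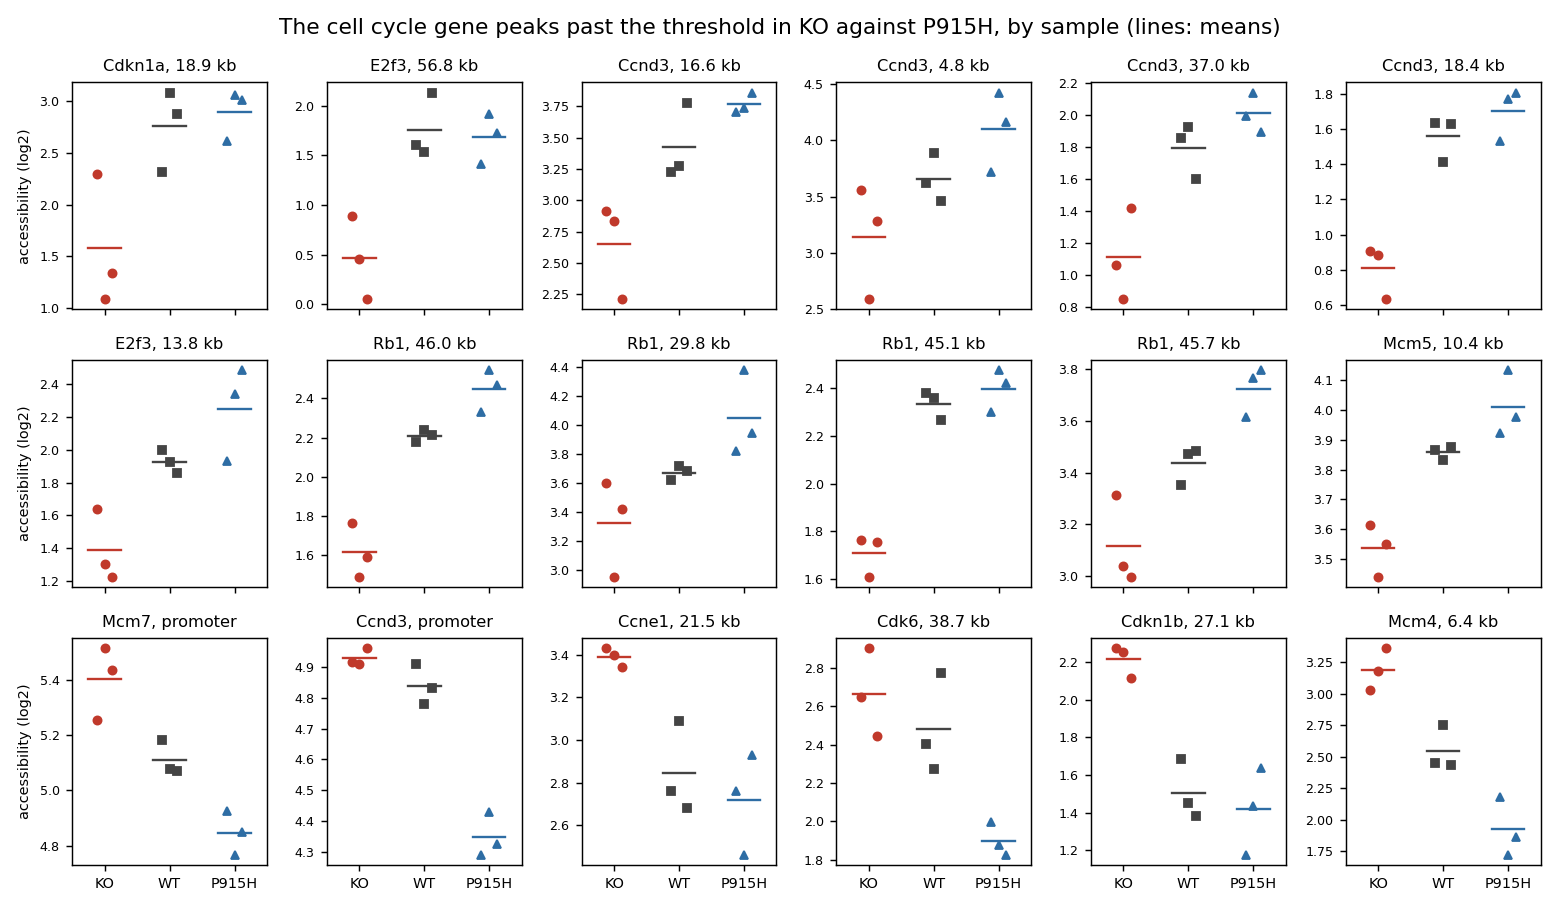
Accessibility (log2) in each sample at the 18 member peaks past the threshold in KO against P915H, 1 panel a peak, named by gene and distance to the nearest gene start (for Rb1 and Mcm4, to the nearest end of the gene body); symbols are samples and lines are group means. The upper 12 panels are lower in KO, the lower 6 higher, and the WT mean lies between the other groups in 17 of 18 panels.

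For the roles with no call, the peaks with the smallest p were as follows. Mki67, the classical marker of dividing cells, has its strongest peak not at the promoter but upstream of the gene (chromosome 7, 135735811-135736031), with 6.26, 6.37 and 6.37 in KO, 6.16, 6.20 and 6.06 in P915H and 6.23, 6.10 and 6.22 in WT. KO exceeded P915H by 0.19 (SE 0.09, adjusted p = 0.169). In the DNA synthesis group, a peak in the body of Rrm2 (24709514-24709685) had 2.74, 3.18 and 3.00 in KO, 2.62, 2.32 and 2.48 in P915H and 2.86, 2.71 and 2.74 in WT, and KO exceeded P915H by 0.50 (SE 0.18, adjusted p = 0.0953). In the mitotic group, a second promoter peak of the spindle checkpoint kinase gene Bub1 (chromosome 2, 127832845-127833023) had 2.45, 2.79 and 2.53 in KO, 2.28, 2.16 and 2.27 in P915H and 2.47, 2.26 and 2.40 in WT. The difference there was 0.35 (SE 0.18, adjusted p = 0.239).

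**Figure D5:**
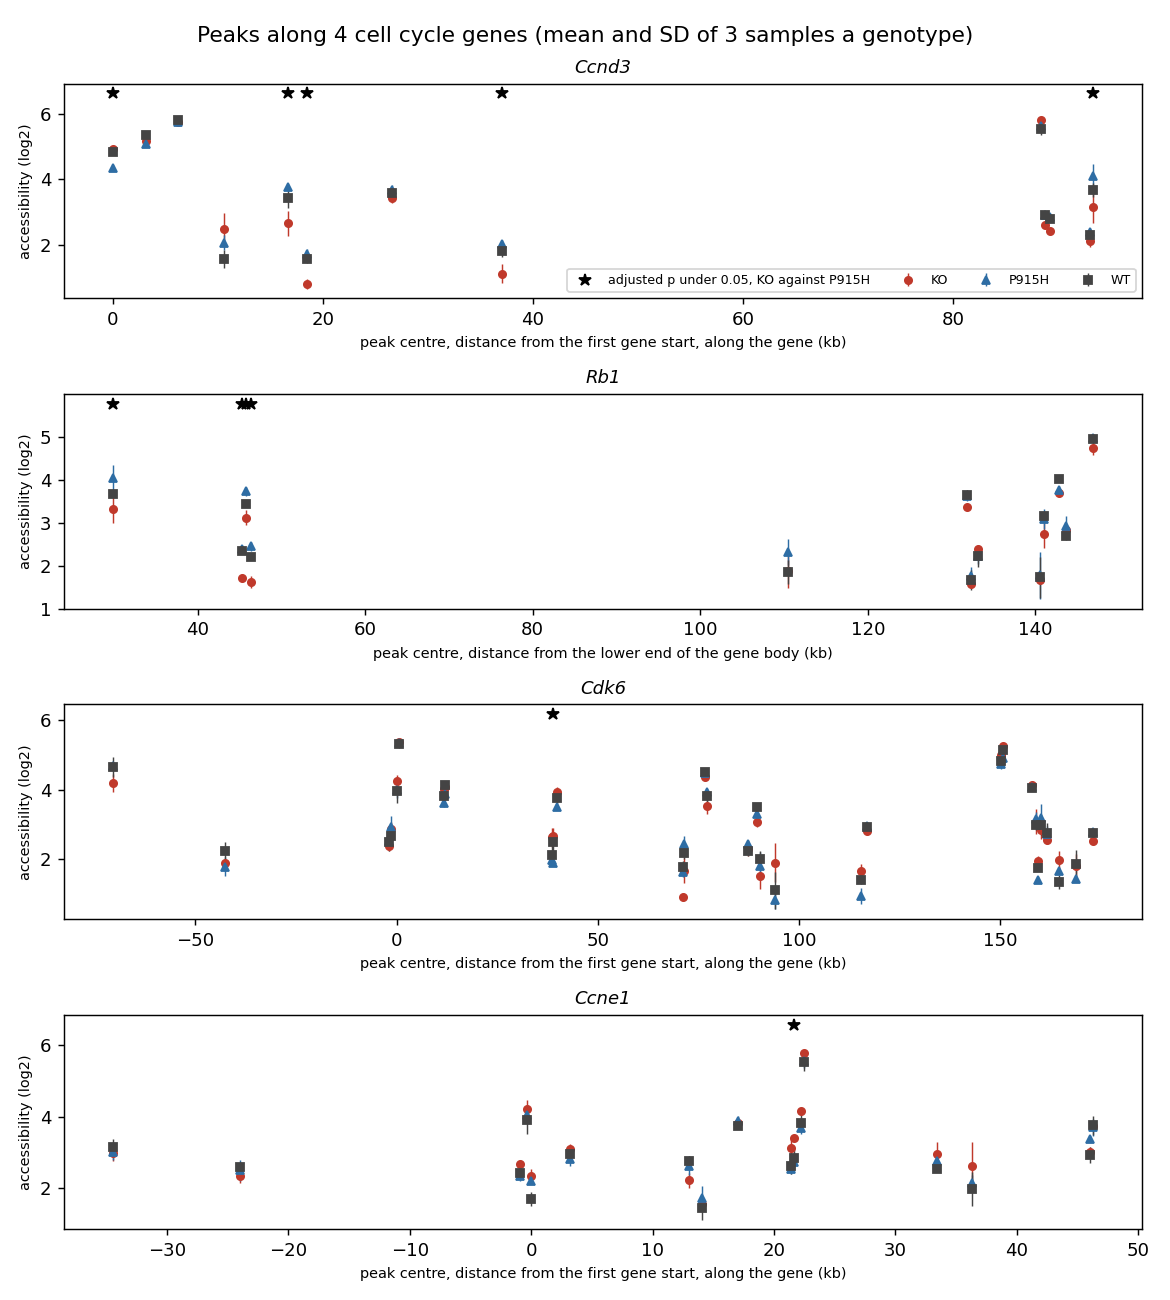
Mean accessibility (log2, bars are SD, n = 3 samples a genotype) of each peak along Ccnd3, Rb1, Cdk6 and Ccne1, by distance of the peak centre in kb from the first gene start or, for Rb1, the lower end of the gene body; stars mark peaks with an adjusted p under 0.05 in KO against P915H. At Ccnd3 the star at the start is higher in KO and the 4 stars inside the gene are lower, and the 31 peaks of Cdk6 hold 1 star.

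Against WT, neither group had a member peak past the threshold in limma. KO against WT gave 0 of 192, against 0.0195% of all peaks (12 peaks; 0.0% of promoter and 0.0274% of other peaks). Of the members, 29 peaks had an unadjusted p under 0.05 (15.1%; 11 higher, 18 lower), against 18.7% of all peaks. P915H against WT gave 0 of 192, against 0.255% of all peaks (0.0618% of promoter and 0.334% of other peaks), and 8 had an unadjusted p under 0.05 (4.17%; 2 higher, 6 lower), against 7.72%. The groups did not overlap at 56 members in KO against WT (29.2%, against 32.2% of all peaks) and at 43 in P915H against WT (22.4%, against 21.5%). The median log2 difference at the members' promoter peaks was 0.08 for KO and 0.03 for P915H, against 0.06 and 0.03 over all promoter peaks. At the members' other peaks it was -0.06 in both, against -0.04 for KO and 0.007 for P915H over all other peaks. These comparisons share the WT samples.

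At the 18 peaks that separated KO from P915H, the WT mean lay between the other means in 17 (94.4%), as it did in 95.9% of all 9548 peaks that passed. The exception was the upstream peak of E2f3. WT was nearer to P915H at 15 of 18 (83.3%, against 71.6% of all such peaks), and nearer to KO at the Ccnd3 promoter, the Cdk6 peak and the Rb1 peak at 73222639. On the first principal component of all peaks KO samples lay at 44.9, 103 and 82.0, WT at 5.93, -28.8 and -16.4, and P915H at -50.8, -73.8 and -65.6. KO replicate 1 was the KO sample nearest to WT.

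The number of calls moved with single samples. When each sample was left out in turn, the number of member peaks past the threshold in KO against P915H was 18, 3 and 4 without KO replicates 1, 2 and 3. It was 10, 2 and 5 without P915H replicates 1, 2 and 3, and 8, 13 and 22 without WT replicates 1, 2 and 3. A fit without 1 sample also has fewer degrees of freedom. The share of all peaks called in each fit is not given here. The counts in this paragraph therefore do not show a change particular to the members. Leaving out a WT sample does not change the estimated difference between KO and P915H, only its spread and degrees of freedom. The Mcm4 peak in the gene body and the Ccnd3 promoter peak passed in all 9 fits without 1 sample. The Ccnd3 peak at 47521611 passed in 8 of them and the Mcm7 peak in 6. The calls at Rb1 numbered 0 to 4, with 0 without KO replicate 2 or 3 or P915H replicate 2 or 3. Of the lower calls at Ccnd3 0 remained without P915H replicate 2. Without the term for the replicate number, which counts more degrees of freedom than the values hold, 41 members passed in KO against P915H (22 higher, 19 lower) and 19 in KO against WT (6 higher, 13 lower).

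A second list of 49 genes of the same pathways, none of them members, gave 170 peaks. In KO against P915H 24 of these passed (14.1%), 17 higher and 7 lower, close to the share of all peaks, and 0 passed in either comparison with WT. By unadjusted p under 0.05 it had 25 in KO against WT (14.7%, against 18.7% of all peaks) and 19 in P915H against WT (11.2%, against 7.72%). At promoters 2 of 63 passed (3.17%) and elsewhere 22 of 107 (20.6%).

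The higher peaks of that list lay at Fbxw7 (4), whose product marks cyclin E for destruction, the inhibitor genes Cdkn2a (3) and Cdkn2b (3), Cdc25b (2), E2f7 (2), Wee1, Gins1 and Ttk. The lower ones lay at the D-type cyclin gene Ccnd1 (4), Bub1b, Mad2l1 and Rbl2. The greatest rise was within E2f7, a repressive E2F (chromosome 10, 110773974-110774182), with 3.29, 3.01 and 3.21 in KO, 0.82, 1.43 and 0.78 in P915H and 2.26, 1.93 and 2.38 in WT. KO and P915H were separated by WT. KO minus P915H came to 2.16 (SE 0.25, adjusted p = 0.00118). The greatest fall was 97480 bp from Ccnd1 (chromosome 7, 145037311-145037527), with 1.55, 1.57 and 0.95 in KO, 2.93, 3.17 and 3.47 in P915H and 2.57, 2.31 and 2.63 in WT. In limma, KO differed from P915H by -1.83 (SE 0.24, adjusted p = 0.00213). Without 1 sample at a time the calls of this list numbered 7 to 28, and the share of all peaks in those fits is not given here.

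The strongest peaks of the 9 markers of the sorted cells ranged widely, from above 55.4% of all peaks per kb (Ms4a1) to above 97.4% (Pax5). Cd79a exceeded 94.3%, Tbx21 (T-bet) 84.5%, Zeb2 73.2% and Itgax (CD11c) 55.5%. The strongest Itgax peak averaged 3.56 in KO, 4.32 in P915H and 4.32 in WT, and that of Zeb2 3.95, 3.81 and 4.03. Of the T cell, macrophage and monocyte, neutrophil, natural killer and erythroid markers, Cd4, Cd8a, Lyz2, S100a8, S100a9, Ncr1, Gata1 and Hba-a1 had no assigned peak. Cd3d, Adgre1 and Klrb1c, however, had peaks above 96.2%, 93.5% and 91.6% of all peaks. The remaining markers of these lists ran from 0.0569% (Cd14) to 86.1% (Lck). Summed over its 9 peaks, linear accessibility of the macrophage and monocyte list (3 of 4 markers with a peak) was 136 to 155 in KO, 180 to 197 in P915H and 161 to 185 in WT. Of the 9 peaks 2 were lower in KO than in P915H and 0 higher (22.2% past the threshold, against 15.5% of all peaks). The list of age-associated B cell and B cell markers (9 of 9 markers, 105 peaks) summed to 1181 to 1238 in KO, 1208 to 1297 in P915H and 1245 to 1276 in WT, so KO and WT did not overlap. Of its 105 peaks 6 were higher and 14 lower in KO than in P915H (19.0% past the threshold). Over all peaks 15.5% passed, 6.55% higher and 8.97% lower. The plasma cell list (5 of 5 markers, 45 peaks) summed to 448 to 473 in KO, 410 to 435 in P915H and 418 to 459 in WT. The part of the differences at these markers in the results at the cell cycle genes was not tested. In sorted populations of this kind a smaller number of cells with an open site and less opening per cell cannot be told apart.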

How the data were processed

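ATAC-seq values of 9 samples, 3 per genotype as given in the sample titles, were used as deposited: log2 values for 61540 peaks, and a table of peak coordinates on mm10. Per the submitters' processing notes, the tools were limma, MACS2, SAMtools, Picard 2.18.12, Bowtie2 2.3.3 and Trim Galore 0.6.5, with no roles given. The sources used here do not give how the authors normalized the log2 values or whether peaks were called on pooled samples. Summed antilogs reach between 0.987 and 1.014 of the nominal CPM total, so depth and counting error are unknown. At each peak the mean over genotypes is equal for the 3 replicate numbers (to 1.6e-14), so a replicate effect was removed before deposit and 4, not 6, residual degrees of freedom remain. For the same reason pairing by replicate number cannot be tested in these values.

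A single fit of 9 samples was made in limma (version 3.58.1, under R 4.3.3) with genotype, a term for the replicate number and an intensity trend. Tests were two-sided at a threshold of 0.05 after Benjamini-Hochberg adjustment across the 61540 peaks. No peak was filtered out. The fit was tested on simulated data. Gene bodies and starts came from RefSeq tables of GRCm38.p6. Peaks given in full are every member peak past the threshold, for 1 or more members of each role that gene's own strongest promoter peak (highest mean of 9 samples), and the smallest p of each role in KO against P915H. From the related list, the greatest rise and fall and the peaks of the closing section were chosen after their values were seen. The members, roles, related list, markers and motifs were chosen with earlier results of these data known. Other steps used matplotlib 3.10.9, NumPy 2.4.6, pandas 2.3.3 and Python 3.11.15. Alternatives were no replicate term, quantile normalization, median centring, a minimum mean of 0, sample weights, only the compared samples, no trend, other thresholds and each sample left out in turn.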

Additional observations from a re-analysis of the deposited data

How the results depend on the processing

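The number of member peaks past the threshold in KO against P915H (18) was 41 (22 higher, 19 lower) without the replicate block, 32 (16 higher, 16 lower) at an adjusted p under 0.1 and 4 (3 higher, 1 lower) under 0.01. With each sample left out in turn it ran from 2 to 22. The shares of all peaks under these settings are not given here, so the counts do not show a change particular to the members. The 18 peaks were all among the 41 without the replicate block, which counts more degrees of freedom than the values hold. Quantile normalization gave 17 (16 shared), median centring 20, a minimum mean of 0 gave 18, sample weights 24, only the 6 compared samples 14 (11 shared) and no trend 20 (16 shared). For KO against WT (0), the counts were 19 (6 higher, 13 lower) without the replicate block, 1 at an adjusted p under 0.1 and 0 to 2 with each sample left out. For P915H against WT (0), 1 peak passed without the replicate block and 1 with sample weights. With each sample left out, the median difference at members' other peaks in KO against WT (-0.06) ran from -0.0695 to 0.0285, and at promoter peaks in KO against P915H from -2.97e-05 to 0.0882. No result changed direction while past the threshold under these alternatives. Depth is unknown, so its limits cannot be given; 3 samples a group and the removed replicate effect limit the precision.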

Other observations

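Of the related list, whose share of calls in KO against P915H (14.1%) was below the 15.5% of all peaks, the values at some further peaks were as follows. At the neighbouring inhibitor genes Cdkn2a and Cdkn2b on chromosome 4, 3 of 4 and 3 of 15 assigned peaks were higher in KO and 0 lower. The strongest of these (89282159-89282376, overlapping Cdkn2a and within 1 kb of a RefSeq start) had 4.00, 4.34 and 4.05 in KO, 2.72, 2.93 and 2.70 in P915H and 3.71, 3.16 and 3.68 in WT, a difference of 1.35 (SE 0.19, adjusted p = 0.00258, limma). KO and P915H did not overlap, and WT lay between them. Cdkn2a encodes the inhibitors p16 and ARF, and Cdkn2b encodes p15. The 3 peaks given to Cdkn2b lie 54972 to 84780 bp from its body.

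Peaks at 2 genes of spindle checkpoint kinases moved in opposite directions. A peak in the body of Ttk (chromosome 9, 83843040-83843263) had 3.89, 3.96 and 4.13 in KO, 2.86, 3.07 and 2.93 in P915H and 3.68, 3.40 and 3.37 in WT, with a difference of 1.04 (SE 0.15, adjusted p = 0.00323). A peak in the body of Bub1b (chromosome 2, 118638809-118639035) had 2.18, 1.42 and 1.88 in KO, 3.32, 3.55 and 3.23 in P915H and 2.45, 2.98 and 2.85 in WT, with a difference of -1.54 (SE 0.24, adjusted p = 0.00372). At Cdc25b, whose phosphatase activates the mitotic CDK, a peak in the gene body (131190703-131190921) had 3.96, 4.49 and 4.10 in KO, 3.10, 2.92 and 2.86 in P915H and 3.78, 3.44 and 3.88 in WT, with a difference of 1.22 (SE 0.19, adjusted p = 0.00353). In these 3 peaks WT lay between KO and P915H.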
